A study of Arabidopsis thaliana with 16 samples.

Results

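The plastid genome of Arabidopsis encodes part of the photosynthetic machinery, and 47 of these genes were followed here across the developing seed. They were chosen by name from an annotation of the array: probe sets that name 1 gene whose symbol begins psa, psb, pet, ndh or atp in lower case followed by a capital letter, together with rbcL, cemA, ccsA, ycf3 and ycf4. The 47 are a small part of the 13513 probe sets that name 1 gene and of the 22746 Arabidopsis probe sets on the array. They comprise 15 genes of photosystem II, 5 of photosystem I, 6 of the cytochrome b6f complex, 6 of the ATP synthase, 10 of the NADH dehydrogenase-like (NDH) complex, the large Rubisco subunit gene rbcL, and 4 others. These 4, called assembly and other genes below, are ycf3, ycf4 and ccsA, of complex assembly or cytochrome maturation, and the envelope protein gene cemA. Each gene had 1 probe set, all 47 matched a locus of the plastid genome, and all 47 were bright enough to be tested; ndhB was not a member, because its probe set names 2 gene copies.

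The samples were untreated seeds of the accession Ws-0 at the heart stage of embryo development, from plants kept in continuous light. For all arrays the plants were 38 to 46 days old, the siliques 1.2 to 1.5 cm long and the embryos 52 to 85 micrometres in size. The RNA input was 5 to 6 ng. Regions were cut by laser capture microdissection, a laser under a microscope, from paraffin sections of fixed siliques, and the RNA was amplified and hybridised to Affymetrix ATH1 arrays. The 7 groups were whole seeds (2 arrays), the embryo proper (2), the micropylar endosperm next to the embryo (2), the chalazal endosperm at the pole where maternal supply enters (3), the peripheral endosperm (2), the chalazal seed coat (3) and the rest of the seed coat (2). The labels call the 16 arrays biological replicates without saying which plants each came from, so the p-values measure the spread between these arrays only.

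Photosystem II and photosystem I capture light and are joined by the cytochrome b6f complex, which passes electrons between them and moves protons across the thylakoid membrane. The ATP synthase uses that proton gradient, Rubisco fixes carbon dioxide, and the NDH complex returns electrons from photosystem I to the plastoquinone pool. The remaining subunits of these complexes are encoded in the nucleus, and the plastid genes are mostly transcribed in multi-gene units by a plastid-encoded and a nucleus-encoded RNA polymerase. In many angiosperms, Arabidopsis included, the seed is green for part of its development, and the chloroplasts lie in the embryo, the endosperm and layers of the seed coat.

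Levels are given on the log2 scale, as log2 of the deposited signal plus a small offset, shifted so that all arrays share the same median. Levels of different genes are not compared, because probe sets differ in brightness. The plastid genes together took 1.15% to 4.75% of the summed signal of an array. Of the 47, ndhF alone reached the array's background bound (the 95th percentile of control probe sets for Bacillus genes), on 5 of 16 arrays: chalazal endosperm replicates 2 and 3, chalazal seed coat replicates 1 and 3, and seed coat replicate 1.

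In both chalazal groups the arrays were spread apart in these 47 genes, and 1 array of each group was singled out. Chalazal endosperm replicate 3, called the low chalazal array below, had the lowest level of its group for 43 of the 47 genes. Chalazal seed coat replicate 1, the high chalazal array, had the highest of its group for 44 of 47. At the other ends, chalazal endosperm replicate 2 was highest for 40 genes and chalazal seed coat replicate 3 lowest for 38. By correlation over all tested probe sets neither array was set apart. The low array correlated with its group at 0.856 and 0.833, against 0.822 between the other two. Other measures did set it apart, as it had the lowest background bound of its group. Of Arabidopsis probe sets, 64.4% lay above the bound on it. On chalazal endosperm replicates 1 and 2 these shares were 44.7% and 50.6%, the lowest of all arrays. For the high array the correlations were 0.820 and 0.852, against 0.846. Its ratio of 3' to 5' control signal was 19.5 for GAPDH, against 11.9 and 3.84 on replicates 2 and 3. For ubiquitin it was 5.18, against 5.46 and 6.54, and for actin 16.3, against 21.7 and 11. The part of these measures in the member levels was not tested. The counts below are also given with both arrays left out. Because the 2 arrays were picked by the levels of the members themselves, leaving them out raises the chalazal endosperm and lowers the chalazal seed coat means of most members by construction, so the higher counts obtained in that way support nothing. The labels of the regions were checked with the few marker genes that the annotation names. The summed signal of 3 seed coat markers (BAN, DFR and UGT80B1) was 318.6 to 343.0 in the embryo proper, 679.0 to 1294 in the micropylar endosperm, 404.8 to 1160 in the chalazal endosperm, 2047 to 4761 in the peripheral endosperm, 16867 to 25331 in the chalazal seed coat and 34576 to 35285 in the seed coat. BAN was at or under the background bound on all embryo proper and all chalazal endosperm arrays. In both seed coat regions these sums are mostly DFR signal. UGT80B1 did not mark the seed coat here: its levels were 6.67, 10.04 and 9.75 in the chalazal and 8.88 and 8.90 in the peripheral endosperm, against 7.14, 7.97 and 8.35 in the chalazal seed coat and 8.52 and 8.95 in the seed coat. The sum of 6 embryo markers was 4699 to 4825 in the embryo proper, above every other group, of which the chalazal seed coat came nearest with 2392 to 3755. BBM, CR4 and PHV were highest on the embryo proper arrays. LHW was not, with 10.41 and 10.81 in the embryo proper, against 11.11, 11.16 and 11.46 in the chalazal seed coat, and CLV3 and YAB3 had their highest levels on endosperm arrays (8.20 on chalazal endosperm replicate 2 and 8.27 on micropylar endosperm replicate 1). Of 4 endosperm markers named in the annotation, 3 were bright enough to be tested (AGL62, DME and IKU1). These 3 did not separate endosperm from the rest, with sums of 863.5 to 1918 in the endosperm regions and 1050 to 1260 in the embryo proper. AGL62 was at or under the bound on both peripheral endosperm arrays.

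**Figure D1:**
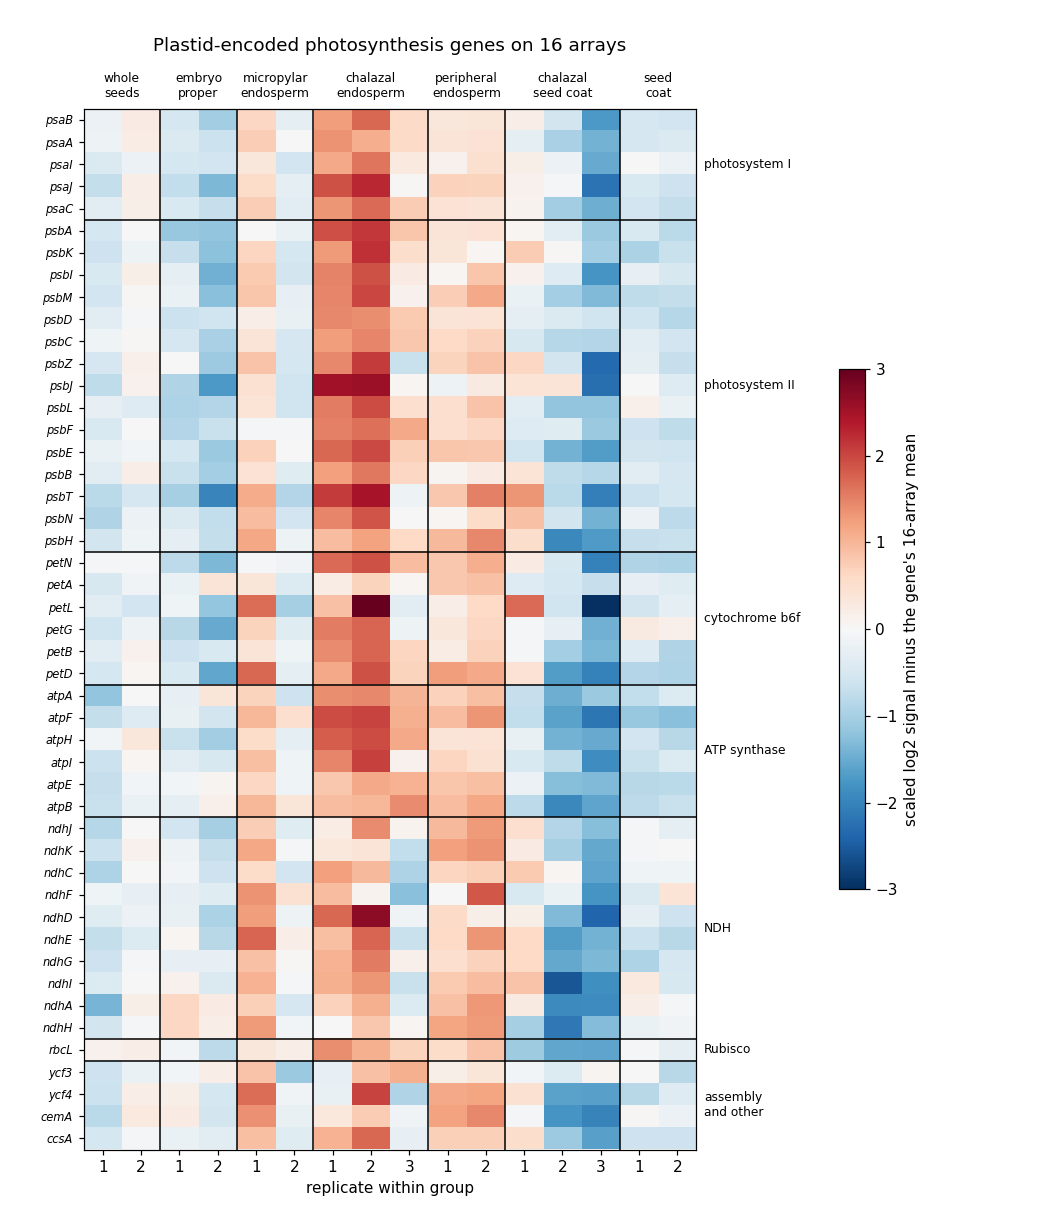
Scaled log2 signal of each of the 47 genes on each of the 16 arrays, minus that gene's mean over the 16 arrays (red above the mean, blue below it), with genes grouped by complex and arrays by group. Chalazal endosperm replicates 1 and 2 are the reddest columns for photosystem genes, and chalazal seed coat replicates 2 and 3 hold the darkest blue cells.

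The level of the plastid photosynthesis genes differed among the 6 compartments for most members. By limma's moderated F-test with Benjamini-Hochberg adjustment, 38 of 47 differed, against 56.6% of all tested probe sets; with the low and the high chalazal array left out the count was 45. The 9 that did not pass were psbZ, psbN, petA, petL, ndhC, ndhF, ndhI, ycf3 and ycf4. The span between the highest and the lowest compartment mean was 0.98 for ycf3, an assembly factor of photosystem I, and 3.19 for atpF, a stator subunit of the ATP synthase, these being the narrowest and the widest of the 47. The highest mean was that of the chalazal endosperm for 35 genes, of the peripheral endosperm for 11 and of the micropylar endosperm for ndhE. The lowest mean fell in the chalazal seed coat for 29, in the embryo proper for 16 and in the seed coat for psbD and ycf3.

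With median-centred arrays the order varied between complexes, and whether the complexes differ was not tested. All 5 photosystem I genes, 14 of 15 photosystem II genes and all 6 ATP synthase genes had their highest mean in the chalazal endosperm, whereas 7 of 10 NDH genes had it in the peripheral endosperm. At the low end, 9 of 15 photosystem II genes were lowest in the embryo proper, and all 6 ATP synthase genes were lowest in the chalazal seed coat. The top position of the chalazal endosperm rested on the scaling of the arrays: it held for 35 genes with median-centred arrays, for 29 without centring and for 15 with quantile normalisation, under which 29 genes were highest in the peripheral endosperm. Under quantile normalisation it held for 2 of 5 photosystem I, 7 of 15 photosystem II and 2 of 6 ATP synthase genes. The peripheral endosperm was then highest for 2, 8 and 4 of these, and for 8 of 10 NDH genes.

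The genes of the photosynthetic complexes were higher in the endosperm than in the seed coat. The mean of the 3 endosperm regions exceeded the mean of both seed coat regions for all 47 genes, and the difference passed limma's test for 40, with none lower; 19.8% of all tested probe sets passed as higher and 15.4% as lower. The median log2 difference of the 47 was 1.29, against 0.19 over all tested probe sets, and with the low and the high chalazal array left out 46 passed. Every ATP synthase gene passed (median 1.59), as did 14 of 15 photosystem II genes (1.17), 4 of 5 photosystem I genes (1.28), 4 of 6 cytochrome b6f genes (1.30), 8 of 10 NDH genes (1.19), rbcL, and 3 of 4 assembly and other genes (1.35). The 7 that did not pass were psaI, psbJ, petG, petL, ndhC, ndhF and ycf3, with differences of 0.51 to 1.26.

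The gene with the smallest p was atpF. Its levels were 13.95 and 13.46 in the micropylar, 14.93, 15.00 and 14.04 in the chalazal and 13.90 and 14.29 in the peripheral endosperm, against 12.22, 11.37 and 10.80 in the chalazal seed coat and 11.82 and 11.71 in the seed coat. No seed coat array reached the lowest endosperm array, and the log2 difference was 2.54 ± 0.26 (SE; limma adjusted p = 1.25e-08). A second ATP synthase gene, atpB, which encodes the catalytic beta subunit, had 13.36 and 12.74, then 13.28, 13.35 and 13.78, then 13.28 and 13.52 in the micropylar, chalazal and peripheral endosperm, against 11.59, 10.44 and 10.78 in the chalazal seed coat and 11.58 and 11.69 in the seed coat. Its groups were separated as well, by a log2 difference of 2.02 ± 0.26 (limma adjusted p = 4.32e-07).

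For rbcL the levels were 14.62 and 14.49 in the micropylar, 15.66, 15.35 and 14.94 in the chalazal and 14.84 and 15.13 in the peripheral endosperm, against 13.21, 12.71 and 12.69 in the chalazal seed coat and 14.22 and 14.01 in the seed coat. The difference was 1.46 ± 0.21 (limma adjusted p = 2.46e-06), and the chalazal seed coat lay below the seed coat. psbF, a subunit of cytochrome b559 in photosystem II, was higher by 1.30 ± 0.19 (limma adjusted p = 3.56e-06). Among photosystem I genes, psaA, a reaction-centre subunit, had levels of 13.60 and 12.87 in the micropylar, 14.21, 13.96 and 13.44 in the chalazal and 13.25 and 13.30 in the peripheral endosperm, against 12.57, 11.88 and 11.45 in the chalazal seed coat and 12.36 and 12.41 in the seed coat. Its endosperm arrays were again all above its seed coat arrays, by 1.28 ± 0.25 on average (limma adjusted p = 1.57e-04).

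Such complete separation held for 10 of the 47 genes upward and none downward, against 4.02% and 4.73% of all tested probe sets. It failed for petB, the cytochrome b6 gene, whose chalazal seed coat replicate 1 at 13.10 was above micropylar replicate 2 at 13.00; the mean difference was 1.34 ± 0.26 (limma adjusted p = 1.87e-04). It also failed for ycf3, with 13.77 and 11.80 in the micropylar, 12.68, 13.78 and 13.98 in the chalazal and 13.08 and 13.28 in the peripheral endosperm, against 12.84, 12.51 and 13.00 in the chalazal seed coat and 12.90 and 12.09 in the seed coat. These groups overlapped, and the difference of 0.51 ± 0.30 did not pass (limma adjusted p = 0.196).

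Scaling changed the size of this contrast and not its direction. Without centring the median of the 47 was 1.07 and 33 genes passed, with an all-probe-set median of -0.02; with quantile normalisation the median was 0.94 and 32 passed. Among all probe sets that passed, 56.2% were higher in the endosperm with centring and 44.1% without it. In microdissected bulk tissue, fewer plastid-bearing cells, fewer plastids per cell and less RNA per plastid cannot be told apart.

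**Figure D2:**
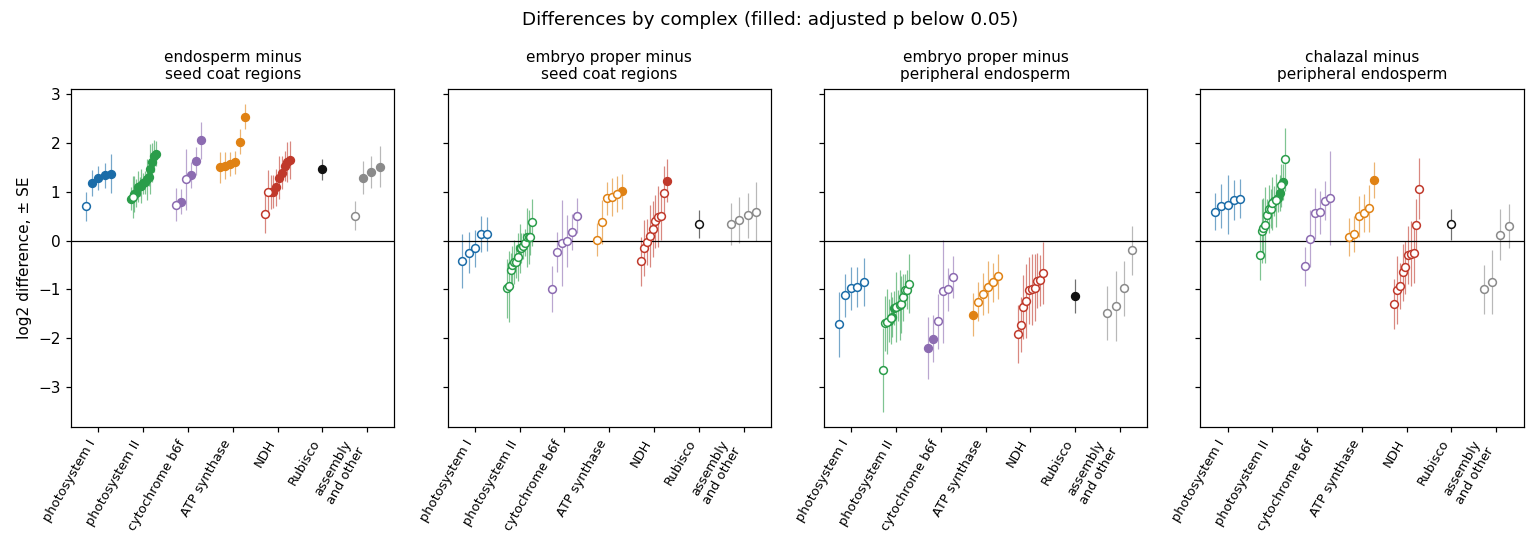
Log2 difference of each gene (point; bar, SE from limma) in 4 comparisons, by complex, with genes sorted by their difference within each complex; filled points passed an adjusted p of 0.05. All 47 points are above 0 for endosperm minus seed coat regions and below 0 for embryo proper minus peripheral endosperm, while for chalazal minus peripheral endosperm most NDH points lie below 0 and most photosystem points above it, where quantile normalisation brings the photosystem medians to -0.03 or closer to 0.

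Levels in the embryo proper lay below those in the peripheral endosperm, by margins that passed the test for a minority of the genes. With centring all 47 differences were negative (46 with quantile normalisation), with a median of -1.17 against -0.23 over all tested probe sets, and 8 genes passed as lower and none as higher; 2.77% of all tested probe sets passed as lower and 2.94% as higher. The 8 were psbA, psbC, psbE and psbF of photosystem II, petD and petN of the cytochrome b6f complex, atpF and rbcL. With the low and the high chalazal array left out, 16 passed, although neither belongs to these groups: they enter through the shared fit. Leaving out arrays picked for their outlying member levels tends to narrow the spread estimated for the members, so this higher count supports nothing. For 46 of the 47 genes both embryo arrays were below both peripheral arrays, as was the case for 38.1% of all tested probe sets; the exception was ycf3.

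psbA encodes the reaction-centre protein of photosystem II that is replaced fastest in the light. Its levels were 13.05 and 13.00 in the embryo proper, against 14.57 and 14.62 in the peripheral endosperm, a log2 difference of -1.57 ± 0.40 (SE; limma adjusted p = 0.0168). psbF had 14.18 and 14.39 in the embryo proper, against 15.56 and 15.69 in the peripheral endosperm, a difference of -1.34 ± 0.32 (limma adjusted p = 0.00871). Both genes had arrays of each group close together, so that the gap was several times the spread within the pairs.

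psbC, an inner antenna protein of photosystem II, had 13.66 and 13.18 in the embryo proper, against 14.76 and 14.85 in the peripheral endosperm (-1.39 ± 0.35, limma adjusted p = 0.0160). petN, a small cytochrome b6f subunit, had 12.45 and 11.88 in the embryo proper, against 14.04 and 14.32 in the peripheral endosperm (-2.01 ± 0.49, limma adjusted p = 0.0109). rbcL, with 14.19 and 13.48 in the embryo proper, against 14.84 and 15.13 in the peripheral endosperm, differed by -1.14 ± 0.35 and was near the threshold (limma adjusted p = 0.0469); it did not pass without centring (adjusted p = 0.087) or with quantile normalisation (adjusted p = 0.0807). No NDH or photosystem I gene passed, though their medians, -1.01 and -0.98, lay below 0.

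Other examples, fixed by complex, did not pass. psaA had 12.43 and 12.20 in the embryo proper, against 13.25 and 13.30 in the peripheral endosperm (-0.96 ± 0.41, limma adjusted p = 0.225). petB differed by -1.0 ± 0.44 (limma adjusted p = 0.236), atpB by -1.10 ± 0.43 (limma adjusted p = 0.159) and ndhF by -1.24 ± 0.76 (limma adjusted p = 0.474). ndhF encodes a membrane subunit of the NDH complex, and its peripheral arrays were far apart, at 7.41 and 9.25. ycf3 differed by -0.20 ± 0.50 (limma adjusted p = 0.915).

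This count depended on the arrays and on the model. It was 0 without embryo proper replicate 2 or without either peripheral array, 1 without embryo proper replicate 1, 14 without chalazal endosperm replicate 3 and 13 without chalazal seed coat replicate 1. It was 36 when the fit held only these 2 groups. Among all probe sets that passed, 51.5% were higher in the embryo proper with centring and 62% without it.

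Between the embryo proper and the seed coat regions, most of these genes did not pass the test. The differences fell on both sides, 26 positive and 21 negative, with a median of 0.07 against -0.19 over all tested probe sets. The test passed for 2 genes, atpB and ndhH, both higher, and for none as lower; 12.5% of all tested probe sets passed as higher and 12.8% as lower. With the low and the high chalazal array left out, 6 genes passed as higher, and with chalazal seed coat replicate 1 alone left out, 5. atpB had 12.07 and 12.52 in the embryo proper, against 11.59, 10.44 and 10.78 in the chalazal seed coat and 11.58 and 11.69 in the seed coat, a log2 difference of 1.01 ± 0.36 (SE; limma adjusted p = 0.0390). ndhH, a subunit of the NDH arm outside the membrane, had 11.33 and 10.93 in the embryo proper, against 9.71, 8.56 and 9.42 in the chalazal seed coat and 10.52 and 10.61 in the seed coat (1.23 ± 0.44, limma adjusted p = 0.0406). For both genes the embryo arrays lay above all 5 seed coat arrays. Such separation held for 6 of the 47 genes upward and 1 downward, against 18.4% and 19.2% of all tested probe sets. Both calls were lost on leaving out either embryo array, either peripheral endosperm array, chalazal seed coat replicate 2 or either seed coat array. That of atpB was also lost without chalazal seed coat replicate 3.

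By complex the values of this contrast fell as follows, and whether the complexes differ was not tested. All 6 ATP synthase differences were positive (median 0.88), all 4 assembly and other genes were positive (0.47) and 7 of 10 NDH genes were (0.31). Photosystem II had 11 of 15 negative (median -0.16), and photosystem I had 3 of 5 negative (-0.16), turning to 0.12 with quantile normalisation; no photosystem gene passed. psbA had 13.05 and 13.00 in the embryo proper, below each of 14.23, 13.87 and 13.06 in the chalazal seed coat and 13.71 and 13.38 in the seed coat, yet the difference of -0.61 ± 0.34 did not pass (limma adjusted p = 0.205). psaA differed by 0.14 ± 0.35, petB by 0.18 ± 0.37, ndhF by 0.10 ± 0.64, rbcL by 0.34 ± 0.29 and ycf3 by 0.34 ± 0.42, none past the threshold (limma adjusted p = 0.419 to 0.927).

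Between the embryo proper and the micropylar endosperm, which encloses it, none of the 47 genes passed the test in either direction. The background was 0.632% of all tested probe sets higher and 2.15% lower. Both embryo arrays were below both micropylar arrays for 30 genes and above them for none, against 31.7% and 19.4% of all tested probe sets. The differences were negative for 43 genes, with a median of -0.89 against -0.18 over all tested probe sets; atpA, petA, ndhA and ycf3 were the 4 positive ones, by 0.03 to 0.34. psbA had 13.05 and 13.00 in the embryo proper, against levels of 14.16 and 13.98 in the micropylar endosperm (-1.05 ± 0.40, limma adjusted p = 0.206). The micropylar replicates were far apart for many genes: petD had 14.01 and 12.01, and the median SD of the 47 genes between these 2 arrays was 0.75, against 0.43 over all tested probe sets. Among all probe sets that passed, 22.7% were higher in the embryo proper with centring and 35% without it.

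Between the micropylar and the peripheral endosperm, none of the 47 genes passed, and the background was 0.816% higher and 0.195% lower. The differences were negative for 45 genes, with a median of -0.42 against -0.03 over all tested probe sets, and the exceptions ndhD and ndhE differed by 0.17 and 0.01. petN had 13.18 and 13.14 in the micropylar endosperm, against 14.04 and 14.32 in the peripheral endosperm (-1.02 ± 0.49, limma adjusted p = 0.597). Both micropylar arrays were below both peripheral arrays for 16 genes and above them for none, against 22.6% and 20% of all tested probe sets.

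Between the chalazal and the peripheral endosperm, few of these genes passed the test. Of the 47, 5 passed as higher and none as lower, a smaller share than over all tested probe sets, of which 14.5% passed as higher and 15% as lower. The 5 were psbA, psbB, psbD and psbF of photosystem II and atpH, the membrane ring subunit of the ATP synthase. With the low and the high chalazal array left out, 18 genes passed as higher. The median of the 47 was 0.53, against 0.25 over all tested probe sets, and it turned to -0.24 with quantile normalisation. The median was 0.76 for photosystem II (14 of 15 positive), 0.73 for photosystem I (5 of 5), 0.57 for cytochrome b6f (5 of 6) and 0.53 for the ATP synthase (6 of 6), and -0.42 for NDH (2 of 10), with no test of a difference between complexes. With quantile normalisation these medians were -0.03, -0.00, -0.13, -0.20 and -0.85, so that those of the first 4 complexes changed sign. With chalazal endosperm replicate 3 left out, the NDH median was 0.08 with 5 of 10 genes positive, against 1.08 for photosystem II and 1.13 for photosystem I.

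atpH had 16.30, 16.44 and 15.61 in the chalazal endosperm, against 14.87 and 14.89 in the peripheral endosperm (1.24 ± 0.36, SE; limma adjusted p = 0.0105). psbA had 16.10, 16.30 and 15.00 in the chalazal endosperm, against 14.57 and 14.62 in the peripheral endosperm (1.21 ± 0.37, limma adjusted p = 0.0141). In both genes every chalazal array was above both peripheral arrays, replicate 3 by the least. Such separation upward held for 11 of the 47 genes and downward for 4, against 29.8% and 23.9% of all tested probe sets. psbF, with 16.57, 16.71 and 16.19 in the chalazal endosperm against 15.56 and 15.69 in the peripheral endosperm, differed by 0.87 ± 0.29 (limma adjusted p = 0.0236). psbD, the other reaction-centre protein of photosystem II, had 15.65, 15.62 and 15.00 in the chalazal endosperm, against 14.60 and 14.62 in the peripheral endosperm (0.81 ± 0.30, limma adjusted p = 0.0438).

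These calls depended on the scaling. Without centring 2 genes passed as higher and 3 as lower, and with quantile normalisation none passed as higher and 4 as lower. psbF changed sign under quantile normalisation, to -0.68 (limma adjusted p = 0.0295), and psbD to -0.24 (adjusted p = 0.506), while psbA became 0.09 (adjusted p = 0.852) and atpH 0.04 (adjusted p = 0.943). The count as higher was also 0 when either peripheral array was left out, 1 without chalazal endosperm replicate 2, and 13 without replicate 3. Among all probe sets that passed, 49.2% were higher in the chalazal endosperm with centring and 37.2% without it.

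Other measures of the arrays differed in this comparison as well, not all of them on every chalazal array. The 25S ribosomal RNA control signal was 158201, 151155 and 99068 in the chalazal endosperm, against 44452 and 39170 in the peripheral endosperm. The background bound was 161.5, 108.5 and 54.8 in the chalazal and 61.8 and 80.3 in the peripheral endosperm, and DFR was lower in the chalazal endosperm, at 8.69, 7.88 and 9.54, against 11.99 and 10.58 in the peripheral endosperm. BAN was at or under the bound on the chalazal arrays, whereas UGT80B1 was higher on 2 of the 3 chalazal arrays than on both peripheral arrays. The share of summed signal in the 47 genes was 4.62%, 4.75% and 2.57% in the chalazal endosperm, against 3.34% and 3.52% in the peripheral endosperm. Of Arabidopsis probe sets, 44.7%, 50.6% and 64.4% lay above the bound in the chalazal endosperm, against 62.8% and 56.7% in the peripheral endosperm. The ratio of 3' to 5' signal of the GAPDH control was 24.7, 3.49 and 4.81, against 7.82 and 8.87. For ubiquitin it was 6.46, 9 and 6.33, against 8.87 and 7.8. For actin it was 6.11, 37.8 and 10.5, against 19.6 and 20.9. The part of these measures in the result was not tested.

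The 12 genes below 0 in this contrast were 8 NDH genes, ycf4, cemA, petA and psbH, none past the threshold with centring, although ndhK, ndhH and cemA passed as lower under both other scalings. ndhK, an NDH subunit outside the membrane, had 11.25, 11.31 and 10.20 in the chalazal endosperm, against 12.16 and 12.28 in the peripheral endosperm (-1.30 ± 0.52, limma adjusted p = 0.0569; 0.0154 without centring and 0.0196 with quantile normalisation). ndhH had 10.73, 11.53 and 10.78 in the chalazal endosperm, against 11.91 and 11.99 in the peripheral endosperm (-0.93 ± 0.48, limma adjusted p = 0.144). All 3 chalazal arrays were below both peripheral arrays for these 2 genes, and for ndhH the adjusted p was 0.0426 without centring and 0.0452 with quantile normalisation. cemA, a protein of the plastid envelope, had 13.05, 13.48 and 12.61 in the chalazal endosperm, against 13.93 and 14.17 in the peripheral endosperm (-1.0 ± 0.51, limma adjusted p = 0.137). Its difference was -1.28 without centring (adjusted p = 0.0391) and -1.66 with quantile normalisation (adjusted p = 0.00924). petA, which encodes cytochrome f, had 11.89, 12.35 and 11.74 in the chalazal endosperm, against 12.49 and 12.56 in the peripheral endosperm (-0.53 ± 0.40, limma adjusted p = 0.326).

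Photosystem and NDH genes can be set against each other within an array, where centring has no effect. The median over photosystem genes minus the median over NDH genes, each gene taken relative to its own 16-array mean, was 0.54, 0.70 and 1.10 in the chalazal endosperm, against -0.30 and -0.69 in the peripheral endosperm. It was -0.47 and -0.27 in the micropylar endosperm, -0.32 and -0.41 in the seed coat, and -0.42 and -0.50 in the embryo proper. The chalazal seed coat arrays spread over both signs, at -0.27, 0.88 and 0.12. With quantile normalisation the chalazal endosperm gave 0.30, 0.26 and 0.92 and the peripheral endosperm -0.12 and -0.57. These values describe the arrays and carry no test.

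**Figure D3:**
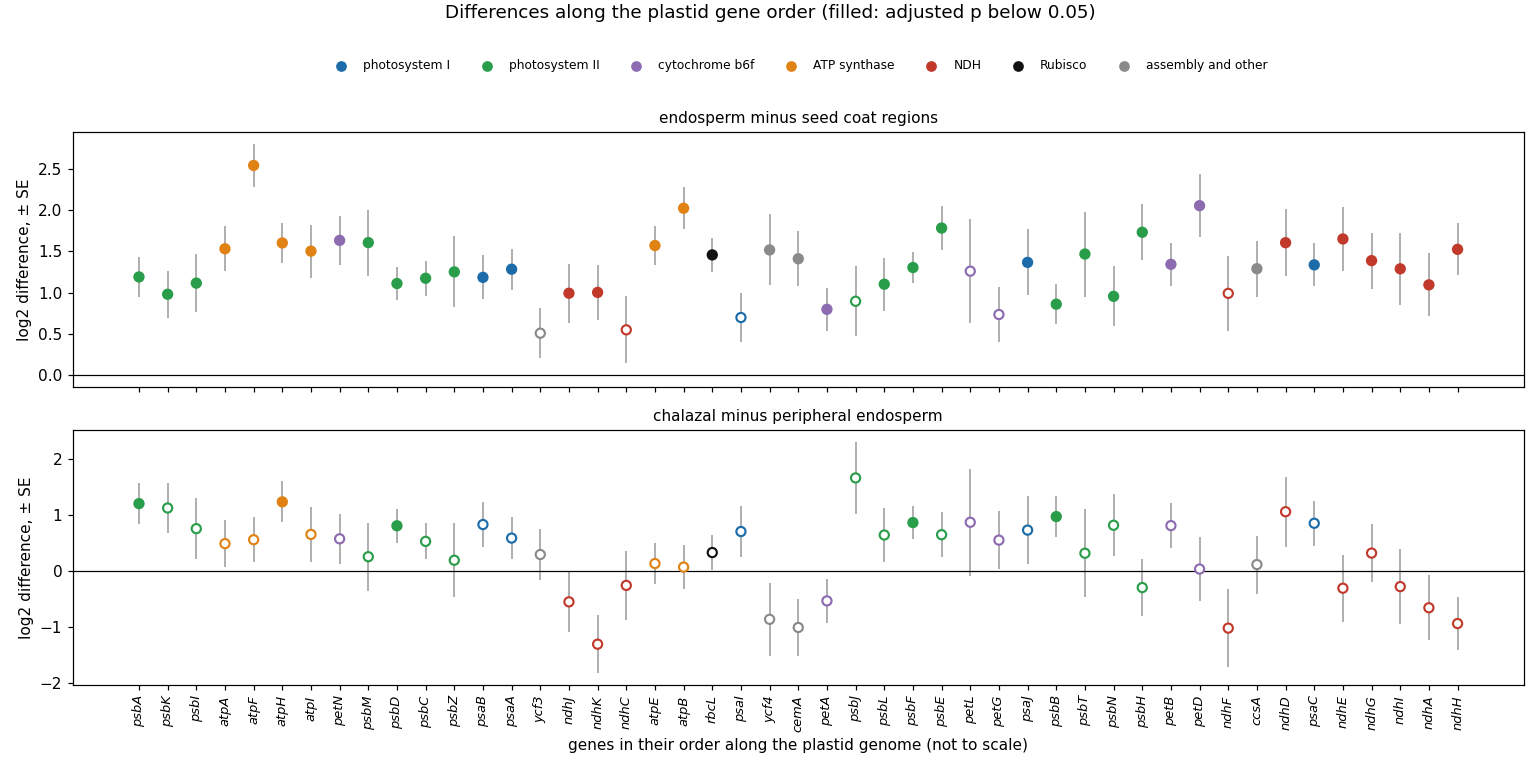
Log2 difference (point; bar, SE from limma) of the 47 genes in their order along the plastid genome, not to scale, for endosperm minus seed coat regions and for chalazal minus peripheral endosperm; colour gives the complex and filled points passed an adjusted p of 0.05. In the lower panel some neighbours differ in sign, as in the run that ends with ndhH, where psaC and ndhD lie above 0 and ndhA and ndhH below it.

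Genes that are transcribed together did not always share a value. In the unit that starts at ndhH, the difference between chalazal and peripheral endosperm was -0.93 for ndhH, -0.65 for ndhA, -0.27 for ndhI, 0.32 for ndhG, -0.30 for ndhE, 0.86 for psaC and 1.06 for ndhD, in the order of transcription. The span of 2.00 within this unit was the widest of 11 such units in this contrast. It is also the unit with the most genes, 7 against 2 to 5 in the others, and a span tends to grow with the number of genes. psaC, which carries iron-sulfur clusters of photosystem I, had 15.20, 15.59 and 14.65 in the chalazal endosperm, against 14.32 and 14.26 in the peripheral endosperm. ndhD had 13.76, 14.72 and 11.93 in the chalazal endosperm, against 12.61 and 12.21 in the peripheral endosperm, so that its groups overlapped through replicate 3. In units of only 2 genes, those of the atpB unit differed by 0.07 and 0.14, and those of the psaA unit by 0.59 and 0.83. None of the 7 genes of the ndhH unit passed the test, and whether members of a unit differ from each other was not tested.

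At the chalazal pole, most of these genes were higher in the endosperm than in the seed coat. All 47 differences were positive (46 with quantile normalisation), with a median of 1.90 against 0.31 over all tested probe sets, and 39 genes passed as higher and none as lower; 19.7% of all tested probe sets passed as higher and 15.3% as lower. With the low and the high chalazal array left out 45 passed, and with quantile normalisation 24. This contrast uses arrays that also enter the comparison of endosperm with seed coat regions and is not independent of it. All photosystem genes, all ATP synthase genes and rbcL passed, and the 8 that did not were petA, petL, ndhC, ndhF, ndhJ, ndhK, ycf3 and ycf4.

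atpF had 14.93, 15.00 and 14.04 in the chalazal endosperm, against 12.22, 11.37 and 10.80 in the chalazal seed coat (3.19 ± 0.36, SE; limma adjusted p = 5.09e-08). rbcL had 15.66, 15.35 and 14.94 in the chalazal endosperm, against 13.21, 12.71 and 12.69 in the chalazal seed coat (2.45 ± 0.28, limma adjusted p = 8.71e-08). atpH differed by 2.69 ± 0.32 (limma adjusted p = 1.81e-07) and psbF by 2.05 ± 0.26 (limma adjusted p = 3.61e-07). The arrays of these 4 genes did not overlap, as held for 26 of the 47 and for 22.6% of all tested probe sets. ndhF had 8.31, 7.49 and 6.13 in the chalazal endosperm, against 6.93, 7.19 and 5.62 in the chalazal seed coat, partly at the background bound, and its difference of 0.73 ± 0.62 did not pass (limma adjusted p = 0.383). Among all probe sets that passed, 56.3% were higher in the chalazal endosperm with centring and 37.8% without it.

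Within the seed coat, rbcL was the only member to pass. Its levels were 13.21, 12.71 and 12.69 in the chalazal seed coat, against 14.22 and 14.01 in the seed coat, a log2 difference of -1.25 ± 0.32 (SE; limma adjusted p = 0.0082), and the groups did not overlap. This made 1 gene lower and none higher, against 5.64% and 5.21% of all tested probe sets; 5 genes passed as lower with the low and the high chalazal array left out, as with chalazal seed coat replicate 1 alone left out. The call for rbcL held without centring (-1.19, adjusted p = 0.00788) and with quantile normalisation (-1.04, adjusted p = 0.0168), but no gene passed when either seed coat array was left out. The differences were negative for 38 of 47 genes, with a median of -0.30 against 0.05 over all tested probe sets. All 10 NDH genes were negative (median -0.73), as were all 6 ATP synthase genes (-0.42), whereas photosystem II was split, 7 positive and 8 negative. With quantile normalisation 9 of 10 NDH and 5 of 6 ATP synthase genes were negative.

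The chalazal difference in the endosperm minus that in the seed coat, a contrast chosen after the values had been seen, was above 0 for 40 of the 47 genes (median 0.77, against 0.15 over all tested probe sets). It passed limma's test for 2, atpH and rbcL, while 8.98% of all tested probe sets passed with a positive value and 7.77% with a negative value. The 2 genes are a smaller share of the 47 than those. With quantile normalisation none passed and the median was -0.10, and none passed without peripheral endosperm replicate 1 or without seed coat replicate 1.

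**Figure D4:**
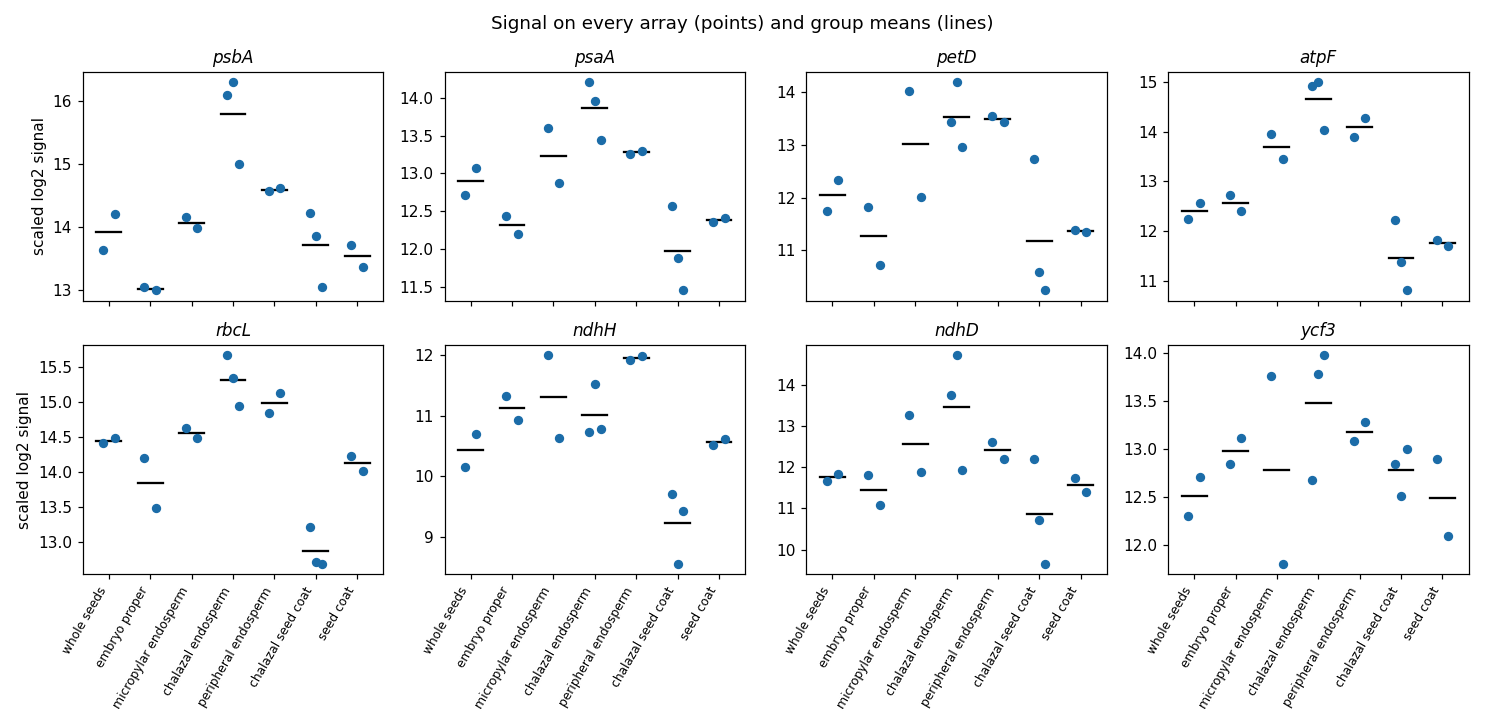
Scaled log2 signal on every array (points) and the group mean (line) for 8 genes, in 7 groups, each gene on its own axis that does not start at 0. psbA and psaA are highest in the chalazal endosperm and lowest in the embryo proper or the chalazal seed coat, rbcL and ndhH are lowest in the chalazal seed coat, and the points of ycf3 overlap in most groups.

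Whole seeds, the mixture of all regions, were set against the mean of the 6 compartments. None of the 47 passed in either direction, against 2.64% of all tested probe sets higher and 0.935% lower. The median difference was -0.32, against -0.23 over all tested probe sets. No gene had both whole-seed arrays outside the range of the compartment arrays, against 0.164% of all tested probe sets above it and 2.61% below it. psbA had 13.64 and 14.20, psaA 12.71 and 13.08, petB 12.80 and 13.26, atpB 11.70 and 12.17, rbcL 14.40 and 14.48, ycf3 12.30 and 12.71, and ndhF 7.26 and 7.16 in whole seeds, and the mean of each pair lay inside the range of the compartment means. The sign rested on the scaling: 5 differences were positive and 42 negative with centring, 30 positive and 17 negative without it (median 0.05, all-probe-set median 0.14), and 37 positive and 10 negative with quantile normalisation (median 0.21, all-probe-set median -0.09). The share of passing probe sets that were higher in whole seeds was 73.9% with centring and 93.5% without it.

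Other gene lists showed where the plastid photosynthesis genes moved with their surroundings and where they did not. Of all tested probe sets, 19.8% passed as higher and 15.4% as lower in the endosperm against the seed coat regions. The shares were 12.5% and 12.8% for the embryo proper against the seed coat regions. They were 2.94% and 2.77% for the embryo proper and 14.5% and 15% for the chalazal endosperm, each against the peripheral endosperm. The plastid genes for ribosomal proteins and RNA polymerase subunits, 19 in number, were all higher in the endosperm than in the seed coat regions (19 of 19 passed, median 1.75), with rpl16 at 2.55 ± 0.24 and rps19 at 2.31 ± 0.28 (SE; limma adjusted p = 3.65e-09 and 2.65e-07), both ribosomal protein genes. Without centring 17 of the 19 passed, and with quantile normalisation 16. In the embryo proper against the seed coat regions, 11 of these 19 passed as higher (median 1.48), against 2 of the 47 photosynthesis genes (median 0.07). rpl16 was higher by 2.48 ± 0.34 and rpoB, an RNA polymerase subunit gene, by 1.92 ± 0.37 (limma adjusted p = 3.60e-06 and 2.69e-04). In the chalazal against the peripheral endosperm, 5 of the 19 passed as lower and none as higher (median -0.59), among them rps16 at -1.87 ± 0.52 and rpoB at -1.33 ± 0.40 (limma adjusted p = 0.00734 and 0.0130).

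The contrast between both plastid lists can also be read within an array. The median of the 47 photosynthesis genes minus that of the 19 genetic system genes, each gene relative to its 16-array mean, was -0.76 and -1.05 in the embryo proper, -0.28 and -0.38 in the micropylar and -0.27 and -0.45 in the peripheral endosperm. The chalazal endosperm gave 0.65, 0.61 and -0.05, and it was 0.39, 0.42 and 0.25 in the chalazal seed coat and 0.30 and 0.14 in the seed coat. The embryo proper thus held the lowest values of the balance between photosynthesis and genetic system transcripts, and every seed coat array was above 0. With quantile normalisation the embryo proper gave -0.90 and -1.05, and chalazal endosperm replicate 3 turned to 0.27.

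Nuclear genes of photosynthesis, of which 11 are named in the annotation, followed the plastid genes in some contrasts and not in others. In the endosperm against the seed coat regions 9 of 11 passed as higher (median 2.86), led by PSAE-1 of photosystem I at 4.50 ± 0.35 and PSBW of photosystem II at 2.75 ± 0.25 (SE; limma adjusted p = 7.69e-11 and 1.69e-09). In the embryo proper against the seed coat regions 8 passed as higher and 1 as lower (median 1.78), with PSAE-1 at 3.18 ± 0.49 (limma adjusted p = 1.76e-05). In the embryo proper against the peripheral endosperm 4 passed as lower (median -2.00). In the chalazal against the peripheral endosperm 9 of 11 passed as lower and none as higher (median -1.96), among them the antenna gene LHCB4.3 at -3.84 ± 0.52 and ATPC2 of the ATP synthase at -3.36 ± 0.50 (limma adjusted p = 2.22e-06 and 7.55e-06). In that same contrast the plastid photosystem II genes had a median of 0.76, turning to -0.03 with quantile normalisation, where the nuclear list stayed at -2.05.

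Both chlorophyll synthesis genes in the annotation, CHLM and PORB, were lower in the chalazal than in the peripheral endosperm, by -2.89 ± 0.52 and -2.80 ± 0.66 (SE; limma adjusted p = 1.04e-04 and 0.00176), and higher in the embryo proper than in the seed coat regions, by 2.10 ± 0.48 and 2.69 ± 0.61 (limma adjusted p = 0.00166 and 0.00147). Of 15 nuclear genes listed for plastid transcription and RNA handling, 3 passed as lower in the chalazal endosperm, against 15% of all tested probe sets. Among the 3 were LPA66 and OTP81, which act on RNA editing (-1.99 ± 0.62 and -1.87 ± 0.60, limma adjusted p = 0.0158 and 0.0181). In the endosperm against the seed coat regions 2 of the 15 passed as higher, a smaller share than the 19.8% of all tested probe sets. They were CRR21, an RNA editing factor, and HCF101, known for iron-sulfur cluster transfer, and none of the 15 passed without centring. The plastid genes outside photosynthesis and the genetic system, accD, clpP and matK, all passed as higher in the endosperm than in the seed coat regions (median 0.69), but none did with quantile normalisation (median 0.27). Mitochondria-encoded genes ran the other way, with 9 of 16 lower and none higher in that contrast (median -0.88), among them cox1 of the respiratory chain at -0.99 ± 0.22 (limma adjusted p = 8.38e-04). In the chalazal against the peripheral endosperm 3 of the 16 passed as higher (median 0.71), against 14.5% of all tested probe sets, and none with quantile normalisation (0.51).

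**Figure D5:**
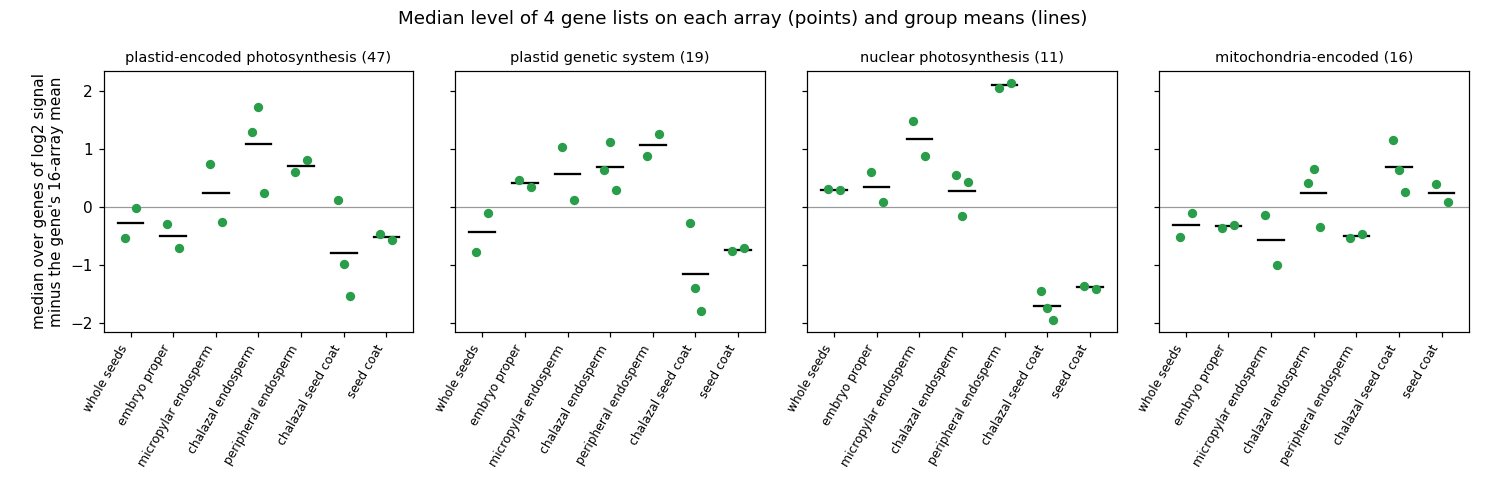
Median over genes of the scaled log2 signal minus each gene's 16-array mean, on every array (points) with the group mean (line), for the 47 plastid-encoded photosynthesis genes, 19 plastid genetic system genes, 11 nuclear photosynthesis genes and 16 mitochondria-encoded genes. The plastid photosynthesis genes reach 1.29 and 1.71 on chalazal endosperm replicates 1 and 2, whereas the nuclear photosynthesis genes are highest in the peripheral endosperm, at 2.05 and 2.14.

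Most of the 47 genes followed a similar profile over the 16 arrays, given here as a description because the points share arrays and groups. The Pearson correlation of a gene with the median of the other members was 0.97 for psbM and psaC, and lowest for ycf3 (0.47), ndhF (0.57) and ndhH (0.66). Among the 11227 tested probe sets that name 1 other gene, the 10 most like the median of the members included 6 of the plastid: rps14 (0.96), rps4 (0.93), rpl32 (0.90), rpl33 (0.89), accD (0.88) and rpl14 (0.87). The other 4 were nuclear genes known here by locus, AT3G05230, AT5G47400, AT5G23680 and AT4G01040, with correlations of 0.87 to 0.89.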

How the data were processed

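Per the submitters' processing notes the authors used GCOS, of a version not given in the sources used here, and deposited 1 linear signal intensity for each probe set on each array. On every array the mean after leaving out the lowest and highest 2% was 500.04 to 500.08. Of 22810 probe sets, 64 controls were set aside, and 3271 dim ones were left out, which leaves 19475 that passed the 40th percentile on 2 or more arrays. Values were log2(signal + 30.2143), the offset being the 25th percentile, with arrays median-centred because their medians differed by a ratio of 1.85, above a limit of 1.5. The number of arrays limits the precision.

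A model with 7 group means was fitted over all tested probe sets with limma 3.58.1 (trend) in R 4.3.3, for 9 two-sided comparisons and a moderated F-test over 6 compartments, with Benjamini-Hochberg adjustment at 0.05; the fit was tested on simulated data, where with 2 arrays a group it missed most changes of small and moderate size. The background bound and the setting without the low and the high chalazal array were chosen after the data had been seen. Members and lists were chosen with earlier results of these data known. Named genes were 1 fixed member per complex (psaA, psbA, petB, ndhF, atpB, rbcL, ycf3), up to 4 members per direction with the smallest p past the threshold, members of opposite sign, the 2 smallest p per other list and the 10 most alike probe sets; others were named after their values were seen. In other lists a gene with several probe sets was read from its brightest. Gene names came from the platform annotation, and gene order from TAIR10.1. Same-numbered arrays of different groups did not deviate together (43 pairs, correlations -0.04 to 0.21), so numbers were not used as pairs. Sequences and promoter motifs were not analysed here.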

Additional observations from a re-analysis of the deposited data

Results flagged for a closer look

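The difference between the chalazal and the other region was compared between endosperm and seed coat, as (chalazal minus peripheral endosperm) minus (chalazal seed coat minus seed coat), a contrast chosen after the values had been seen. The difference between both tissues themselves passed limma's test for 2 of the 47 genes, a smaller share than over all tested probe sets, of which 8.98% passed with a positive value and 7.77% with a negative value. Of all probe sets that passed, 53.6% had a positive value with centring, against 39.1% without it.

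For atpH the value was 1.60 ± 0.51 (SE; limma adjusted p = 0.0314), made of 1.24 in the endosperm and -0.36 in the seed coat. Its levels were 16.30, 16.44 and 15.61 in the chalazal and 14.87 and 14.89 in the peripheral endosperm, and 14.25, 13.06 and 12.97 in the chalazal seed coat against 13.91 and 13.66 in the seed coat. For rbcL it was 1.58 ± 0.45 (limma adjusted p = 0.0144), made of 0.33 in the endosperm, which did not pass by itself, and -1.25 in the seed coat. Quantile normalisation lowered the values to 0.24 (adjusted p = 0.738) for atpH and 0.31 (adjusted p = 0.666) for rbcL. Neither gene passed without peripheral endosperm replicate 1 or without seed coat replicate 1, as no member did, and the count was 8 without chalazal endosperm replicate 3 and 6 without chalazal seed coat replicate 1. For atpH the call was also lost on leaving out any of the other arrays of these 4 groups.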

How the results depend on the processing

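Counts of members that passed are given here as the reported count followed by its values under other settings, and the cause of the changes was not tested. Lower in the embryo proper than in the peripheral endosperm (8): 5 with an offset of 1, 5 with no filter, 36 with only the groups compared, 16 with the low and the high chalazal array left out, and 0 to 14 with any array left out. Higher in the embryo proper than in the seed coat regions (2): 4 without centring, 4 with quantile normalisation, 0 with an offset of 1, 1 with only the groups compared, 6 without those 2 arrays, and 0 to 5 with any array left out; lower (0), 0 to 1 with any array left out. Higher in the endosperm than in the seed coat regions (40): 31 to 44 with any array left out. Higher in the chalazal than in the peripheral endosperm (5): 2 without centring, 0 with quantile normalisation, 0 with no filter, 2 with only the groups compared, 18 without those 2 arrays, and 0 to 13 with any array left out; lower (0), 3 without centring, 4 with quantile normalisation, 1 with no filter and 0 to 2 with any array left out. Higher in the chalazal endosperm than in the chalazal seed coat (39): 24 with quantile normalisation and 28 to 43 with any array left out. Lower in the chalazal seed coat than in the seed coat (1): 5 without those 2 arrays and 0 to 5 with any array left out. The F-test (38) gave 35 to 43 with any array left out. The pole contrast (2) gave 1 without centring, 0 with quantile normalisation, 1 with an offset of 1, 1 with no filter, 18 without those 2 arrays and 0 to 8 with any array left out. Counts of 0 for the embryo proper or the peripheral against the micropylar endosperm and for whole seeds stayed at 0 in every setting run. The replicate number was also used as a block, although whether it pairs the arrays in the members was not tested. The counts for the embryo proper were then 18 lower than in the peripheral endosperm and 3 lower than in the seed coat regions. With this block 20 were higher in the chalazal than in the peripheral endosperm, and 1 was higher in the chalazal seed coat than in the seed coat. The counts were 42 for endosperm against seed coat regions, 44 for the F-test and 4 for the pole contrast. Since those 2 arrays were picked by the members' own levels, the higher counts without them support nothing. With quantile normalisation, psbF turned to -0.68 and psbD to -0.24 in the chalazal against the peripheral endosperm. Where leaving out an array left a group with 1, that array was assumed to vary like the other groups. The brightest and the dimmest probe set could not be compared, because no member had more than 1. Signal near background limited ndhF only.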
